A study of Mus musculus with 96 samples.

Results

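The 7 glucose and fructose transporter genes described here were Slc5a1, Slc5a2 and Slc5a10, which encode sodium-coupled carriers, and Slc2a1, Slc2a2, Slc2a4 and Slc2a5, which encode facilitative carriers. They were chosen by name, and each symbol had 1 row among the 54532 genes of the deposited table. Transcript abundance (TPM, a per-length unit with a common total per sample) was measured by ultra-low-input RNA sequencing of polyA RNA in 93 microdissected pieces of kidney from male C57BL/6 mice aged 6 to 8 weeks, which had free access to water and chow. The pieces formed 15 groups with 3 to 5 mice each. These were the glomerulus (GL), the start of the proximal convoluted tubule (PTS1), the proximal straight tubule of the cortex (PTS2) and of the outer stripe (PTS3), the descending thin limb of short loops (DTL1) and of long loops in the outer (DTL2) and inner medulla (DTL3), the ascending thin limb (ATL), the medullary (MTAL) and cortical (CTAL) thick ascending limb, the connecting tubule (CNT) and the distal convoluted tubule before it (DCT), and the cortical (CCD), outer medullary (OMCD) and inner medullary (IMCD) collecting duct. No group was treated, and no group stood as a control. Pieces of 1 mouse were averaged, so that a value below is 1 mouse, and a group value is a mean ± SD over mice.

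Glucose filtered at the glomerulus is taken up by proximal tubule cells together with sodium and leaves them for the blood through facilitative carriers in the basolateral membrane. SGLT2 (Slc5a2) is the high-capacity apical carrier of the early proximal tubule, SGLT1 (Slc5a1) a high-affinity carrier placed further along, and SGLT5 (Slc5a10) carries mannose and fructose. Among facilitative carriers, GLUT2 (Slc2a2) has a low affinity for glucose, GLUT5 (Slc2a5) is a fructose carrier, GLUT1 (Slc2a1) serves basal glucose supply in many tissues, and GLUT4 (Slc2a4) is best known as the insulin-regulated carrier of muscle and fat.

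RefSeq promoter sequences (build GRCm38.p6) were matched by symbol for 5 of the 7 genes, in 6 windows of 250 bases that end just before a RefSeq start site. They are shown because these genes were not all highest in the same segment. In each window 2 short motifs were searched on both strands: GGGCGG, the GC box, and TATAAA, the TATA box. The motifs do not overlap each other in these windows. Capitals mark matches, on either strand.
Slc5a10, upstream start, chr11:61720800-61721049, minus strand: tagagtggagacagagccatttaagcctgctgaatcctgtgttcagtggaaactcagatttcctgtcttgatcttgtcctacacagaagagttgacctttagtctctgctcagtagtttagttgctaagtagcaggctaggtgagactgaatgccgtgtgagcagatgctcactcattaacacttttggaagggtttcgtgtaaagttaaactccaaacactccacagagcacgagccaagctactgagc
Slc2a2, chr3:28697653-28697902, plus strand: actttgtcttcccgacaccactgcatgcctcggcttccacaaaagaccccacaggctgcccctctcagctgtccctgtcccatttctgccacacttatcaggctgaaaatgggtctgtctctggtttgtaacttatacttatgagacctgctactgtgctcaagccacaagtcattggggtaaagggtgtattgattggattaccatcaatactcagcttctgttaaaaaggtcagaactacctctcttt
Slc2a5, chr4:150119094-150119343, plus strand: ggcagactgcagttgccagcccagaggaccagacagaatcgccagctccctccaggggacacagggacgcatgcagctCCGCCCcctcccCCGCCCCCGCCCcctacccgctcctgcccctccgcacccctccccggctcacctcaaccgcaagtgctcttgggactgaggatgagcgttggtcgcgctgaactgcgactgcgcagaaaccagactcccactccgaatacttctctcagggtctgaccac
Slc2a1, chr4:119108495-119108744, plus strand: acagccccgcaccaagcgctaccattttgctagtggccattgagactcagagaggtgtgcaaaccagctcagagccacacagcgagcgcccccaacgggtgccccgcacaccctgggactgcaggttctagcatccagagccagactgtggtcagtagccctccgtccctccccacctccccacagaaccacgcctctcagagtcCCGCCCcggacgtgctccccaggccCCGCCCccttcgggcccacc
The GC box occurred 3 times in the Slc2a5 window and 2 times in the Slc2a1 window, and 32.7% of all 32851 promoter windows of the same length held it. The TATA box, present in 12.4% of all windows, was in 0 of the 6. The Slc2a2 window, the upstream Slc5a10 window, the Slc5a1 window at chr5:33103969-33104218 on the plus strand and the downstream Slc5a10 window at chr11:61719986-61720235 on the minus strand held 0 matches of either motif. These matches describe the letters only.

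The groups were checked against marker genes before the carriers were read. The 4 glomerular markers summed to 7428 to 8575 TPM in GL, the 7 proximal markers to 51833 to 89959 TPM in PTS2 and PTS3 and 10102 to 11566 TPM in PTS1, and the 4 thick limb markers to 22552 to 31088 TPM in MTAL and 41589 to 47069 TPM in CTAL. Proximal markers were also read in DTL1, at 1240 to 4713 TPM, and endothelial markers reached 3194 to 4285 TPM in DTL1 and 4284 to 4326 TPM in GL. Of 1979 odorant and vomeronasal receptor genes, which kidney cells are not known to use widely, a median of 653.5 in GL, 863.5 in DTL1, 512 in DTL3, 346 in DTL2, 317 in ATL and 107 in OMCD stood at 1 TPM or more, against 38 or fewer in the other 9 groups, and their part in values of a few TPM in those 6 groups was not tested. TPM hold no read depth, which is therefore unknown here. Since pieces are mixtures of cells, fewer cells of a type and less RNA per cell cannot be told apart. In 82 cases of a gene and a mouse, several pieces were present and all stood at 10 TPM or more. Over these cases the highest piece was a median of 1.1 times the lowest and at most 2.31 times. Cases with any piece under 10 TPM are left out, and pieces could differ more there. An example is Slc5a2 in DCT mouse 1, with 2.14 and 71.63 TPM. According to the GENCODE vM21 annotation, 5 of the 7 genes overlap another gene. The labels name no strand-specific counting, so reads of overlapping genes cannot be told apart. Slc5a2 shares 1052 bases with BC017158 on the opposite strand, and BC017158 stood at 94.6 TPM or less in every mouse. The span of Slc2a2 shares 28693 bases with 1700112D23Rik (12.2 TPM or less) and that of Slc5a10 25861 bases with Fam83g (22.4 TPM or less), also on the opposite strand. In DTL1, Slc2a2 averaged 3.77 TPM and Slc5a10 9.01 TPM, so such low values are uncertain.

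All 7 genes differed among the 15 groups (7 of 7, moderated F-test in limma, Benjamini-Hochberg adjusted over 33793 genes), with adjusted p from 2.48e-22 for Slc5a2 to 4.46e-41 for Slc2a4, and 93.9% of all genes tested did so. They were not all highest in the same group. Slc5a2 and Slc2a2 were highest in PTS1, Slc5a10 and Slc2a5 in PTS2, Slc5a1 and Slc2a4 in CTAL, and Slc2a1 in OMCD and CCD. The plot of all genes by group shows 4 proximal carriers low beyond the thin limbs, a carrier present in proximal tubule and thick limb, Slc2a4 from MTAL to OMCD, and Slc2a1 in every group with its lowest levels in the proximal tubule.

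**Figure D1:**
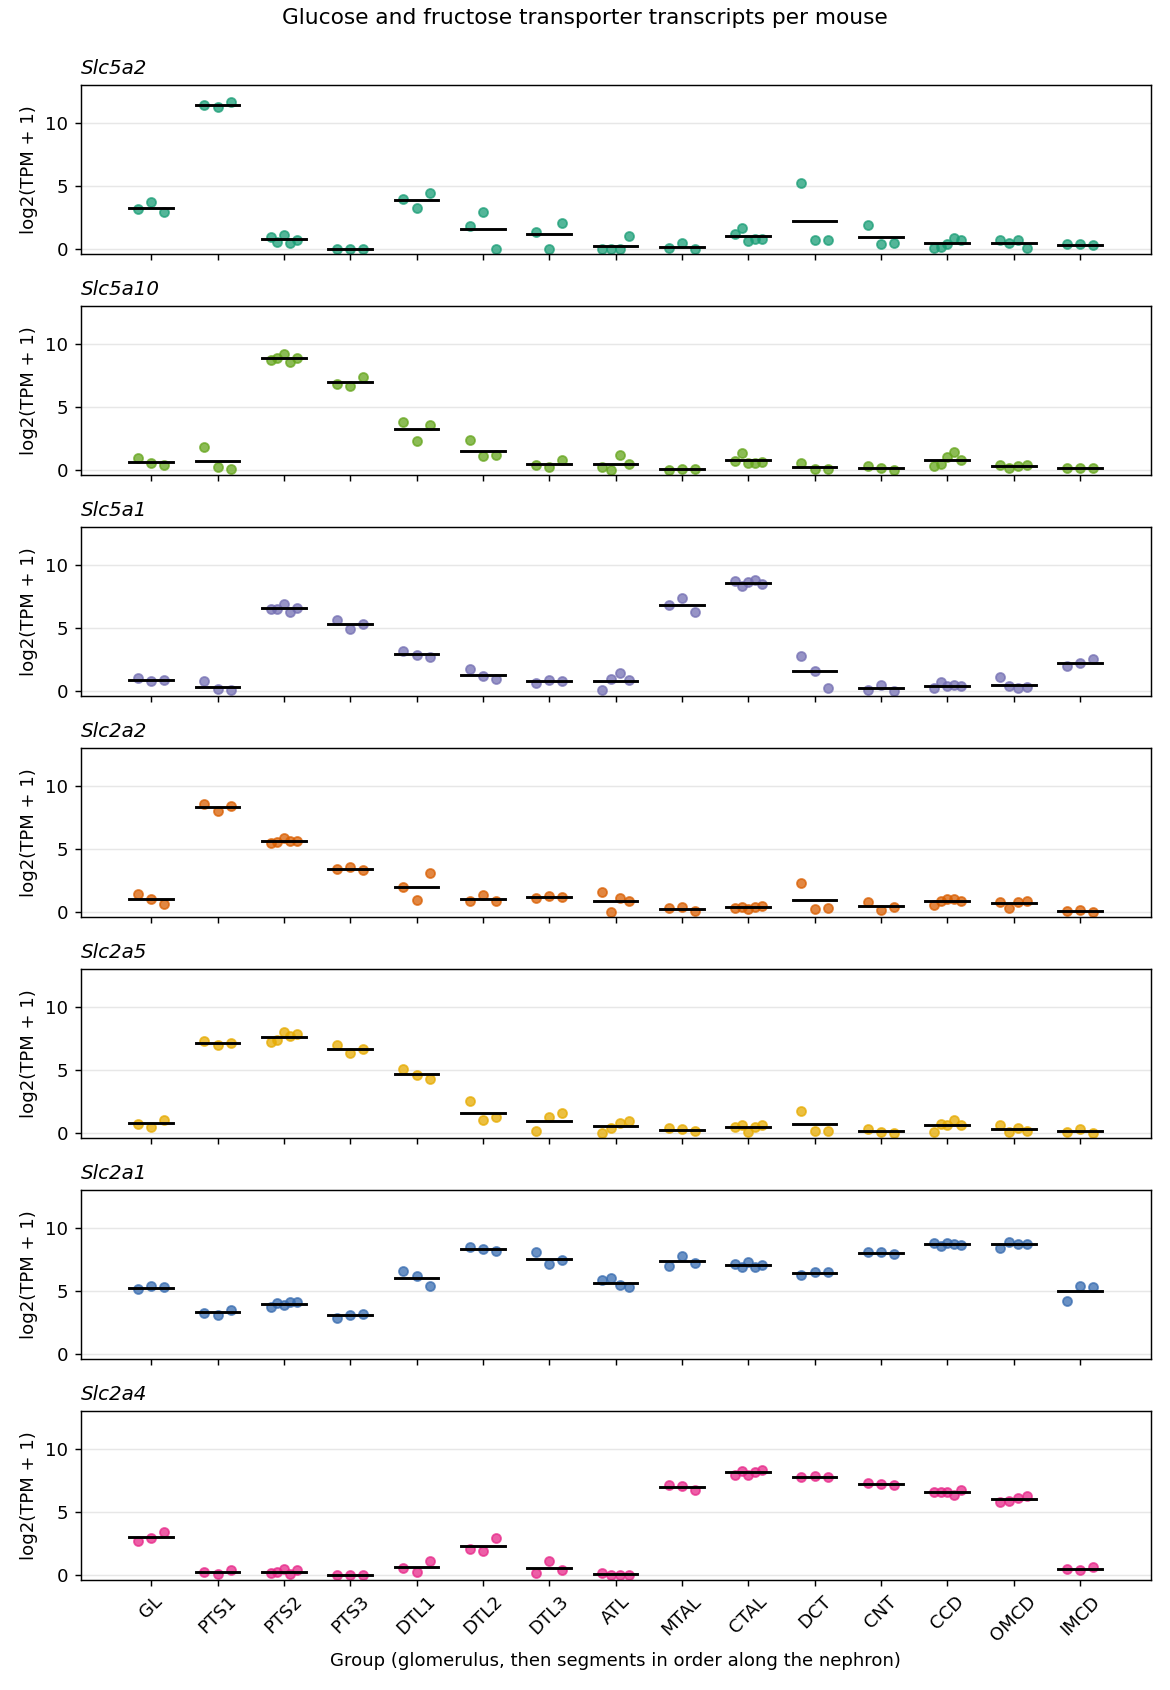
Each panel shows 1 gene, with log2(TPM + 1) on the vertical axis and the 15 groups on the horizontal axis; points are mice and black lines are means of the log2 values. Slc5a2 peaks in PTS1, Slc5a10 in PTS2, Slc5a1 in CTAL with a lower rise in PTS2, and Slc2a4 is near 0 in the proximal tubule, ATL and IMCD.

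The sodium-coupled carriers changed identity between the first and the second proximal segment. Slc5a2 stood at 2761, 2473 and 3141 TPM in the 3 PTS1 mice, at 0.92, 0.41, 1.11, 0.375 and 0.62 TPM in the 5 PTS2 mice, and was listed at 0 in all 3 PTS3 mice. PTS1 was high in every mouse, and no PTS2 or PTS3 mouse came near it. The difference was 10.75 on the log2(TPM + 1) scale (SE 0.48, adjusted p 8.94e-23). Slc5a10 ran the other way, at 2.42, 0.17 and 0.03 TPM in PTS1, at 424, 458, 586, 383 and 455 TPM in PTS2, and at 111, 97.9 and 166 TPM in PTS3. The 3 segments did not overlap in Slc5a10. It was lower in PTS1 than in PTS2 by a log2 difference of -8.31 (SE 0.29, adjusted p 1.25e-26) and higher in PTS2 than in PTS3 by 1.90 (SE 0.29, adjusted p 2.69e-06).

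Slc5a1, the SGLT1 gene, had the same direction as Slc5a10 at a lower level. It stood at 0.66, 0.07 and 0.05 TPM in PTS1, at 90.4, 86.2, 116, 76.4 and 95.6 TPM in PTS2, and at 47, 29.3 and 39.2 TPM in PTS3. No PTS1 mouse reached 1 TPM, and the PTS2 and PTS3 mice did not overlap. The pieces of PTS1 mouse 1 were uneven, at 0.04 and 1.28 TPM for Slc5a1 and at 0.04 and 4.79 TPM for Slc5a10. The log2 differences were -6.28 between PTS1 and PTS2 (SE 0.30, adjusted p 1.07e-21) and 1.28 between PTS2 and PTS3 (SE 0.30, adjusted p 0.00164). The last call was lost with a pseudocount of 0.1 (adjusted p 0.168) and with quantile normalization (log2 difference 0.79). Since TPM are per length, the 3 genes can be summed. Their summed level was 2793 ± 335 TPM in PTS1 (n = 3), 555 ± 90.6 TPM in PTS2 (n = 5) and 164 ± 39 TPM in PTS3 (n = 3). Slc5a2 made up 99.9% to 100% of it in the PTS1 mice. In PTS2, Slc5a10 made up 83.1% ± 0.708 and Slc5a1 16.8% ± 0.678, a ratio of 4.96 ± 0.245 that ranged only from 4.69 to 5.31 over the 5 mice. In PTS3 the ratio was 3.31 ± 0.931 (2.37 to 4.23), and the ranges of PTS2 and PTS3 did not overlap.

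**Figure D2:**
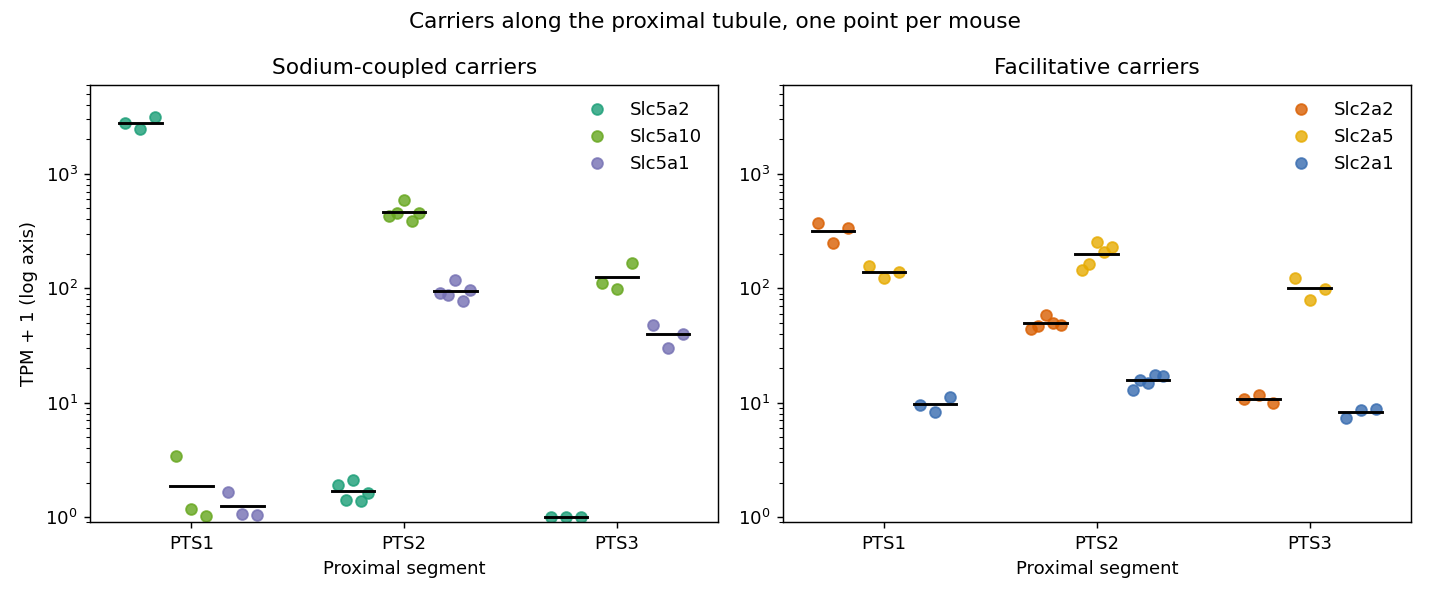
TPM + 1 on a log axis in the 3 proximal segments for the sodium-coupled carriers (left) and 3 facilitative carriers (right); points are mice and black lines are means. Slc5a2 holds PTS1 alone, Slc5a10 lies above Slc5a1 in PTS2 and PTS3, and Slc2a2 declines while Slc2a5 stays within 77.9 to 253 TPM.

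Among the facilitative carriers of the proximal tubule, Slc2a2 declined from segment to segment and Slc2a5 did not follow it. Slc2a2, the GLUT2 gene, stood at 369, 249 and 339 TPM in PTS1, at 43.3, 45.5, 57.6, 48.9 and 47 TPM in PTS2, and at 9.7, 10.7 and 8.89 TPM in PTS3. None of the 3 ranges overlapped. It was higher in PTS1 than in PTS2 by 2.68 (SE 0.31, adjusted p 1.17e-09) and higher in PTS2 than in PTS3 by 2.26 (SE 0.31, adjusted p 2.42e-07) on the log2 scale. In PTS1, Slc5a2 stood at 8.9 ± 1.27 times the level of Slc2a2 (7.49 to 9.94 over 3 mice).

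Slc2a5, the fructose carrier, stood at 155, 123 and 137 TPM in PTS1, at 143, 163, 253, 206 and 228 TPM in PTS2, and at 123, 77.9 and 96.7 TPM in PTS3. The PTS1 and PTS2 mice overlapped, the PTS2 and PTS3 mice did not, and the lowest PTS1 and highest PTS3 mouse met at a rounded value of 123. PTS1 and PTS2 did not differ past the threshold (log2 difference -0.49, SE 0.28, adjusted p 0.28). The difference between PTS2 and PTS3, 1 (SE 0.28, adjusted p 0.00909), sat at the threshold of 1 and was called. That call was lost without PTS2 mouse 4 (0.91), PTS2 mouse 5 (0.98), the PTS2 mouse with no number (0.94) or PTS3 mouse 2 (0.83). It was also lost with rescaling by median ratios (0.83), quantile normalization (0.61, adjusted p 0.1) and averaging as TPM (0.99). A pseudocount of 0.1 (adjusted p 0.511) or 5 (0.97) and a replicate block (0.83, adjusted p 0.0725) ended it too. Slc2a1 was low throughout, with means of 8.76 ± 1.51, 14.7 ± 1.83 and 7.22 ± 0.806 TPM, and Slc2a4 did not reach 0.4 TPM in any proximal mouse. The ratio of Slc2a5 to Slc2a2 was 0.44 ± 0.0488 in PTS1, 4.06 ± 0.628 in PTS2 and 10.3 ± 2.74 in PTS3, with no overlap between segments.

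Of the 7 genes, 4 were called between PTS1 and PTS2 (2 in each direction), 4 between PTS2 and PTS3 (all higher in PTS2), and 4 between PTS1 and PTS3 (2 in each direction). A call is an adjusted p under 0.05 with a log2 difference of at least 1. Among all genes tested the called shares were 9.57%, 4.7% and 10.1%. The median of all genes was shifted by 0.15 between PTS1 and PTS2 and by 0.18 between PTS1 and PTS3. Slc5a2 and Slc2a2 were also higher in PTS1 than in each of the 14 other groups. Their log2 margins over the next group were 7.58 (SE 0.54, adjusted p 4.98e-15, DTL1 next) and 2.68 (SE 0.31, adjusted p 7.25e-09, PTS2 next), and 0.544% of all genes met this rule in PTS1. Slc5a10 met it in PTS2 with a margin of 1.90 (SE 0.29, adjusted p 2.76e-05), where 0.257% of all genes did. Slc2a5 did not meet it in PTS2 (margin 0.49, adjusted p 1).

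Outside PTS1, Slc5a2 appeared at low and uneven levels. In GL its pieces stood at 15.3 and 0.3 TPM in mouse 1, at 23.7 and 0 TPM in mouse 2 and at 11.8 and 1.4 TPM in mouse 3. In each GL mouse 1 piece carried nearly all of the signal. The summed proximal markers in the same pieces were 58.9 and 52.4 TPM, 78.5 and 12.4 TPM, and 34.4 and 15.5 TPM, in the same order within each mouse. In DCT, Slc5a2 stood at 71.63 TPM in 1 piece of mouse 1, at 2.14 TPM in the other piece of that mouse, and at 0 to 1.16 TPM in the 4 pieces of the other mice. The piece with 71.63 TPM also had the highest summed proximal markers of the DCT pieces, 396 TPM against 12.7 to 84.5 TPM in the rest. The part of proximal transcripts in these values was not tested.

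At the junction with the thin limbs 4 proximal carriers (Slc2a5, Slc2a2, Slc5a1 and Slc5a10) fell and Slc2a1 rose. In DTL1, Slc2a5 stood at 32.2, 23.5 and 17.9 TPM, Slc5a2 at 14.6, 8.38 and 20.7 TPM, and Slc5a10 at 12.5, 3.77 and 10.8 TPM. Slc5a1 stood at 7.89, 6.13 and 5.41 TPM and Slc2a2 at 2.87, 0.925 and 7.52 TPM. These 5 genes were all far below their highest proximal segment. As a share of its PTS3 mean, the DTL1 mean was 24.7% for Slc2a5, 38.5% for Slc2a2, 16.8% for Slc5a1 and 7.21% for Slc5a10. The 6 proximal markers with at least 10 TPM in PTS3 gave shares of 3.18% to 18.7%, with a median of 4.68%. The part of proximal transcripts in the DTL1 values was not tested. Of these 5 genes, Slc5a2 alone was higher in DTL1 than in PTS3 (PTS3 minus DTL1 -3.86, SE 0.54, adjusted p 3e-08), a size that depends on the pseudocount because Slc5a2 is listed at 0 in PTS3. In these contrasts the median of all genes was itself shifted, by -1.33 for PTS3 minus DTL1, -0.71 for PTS3 minus DTL2 and 0.54 for DTL1 minus DTL2. Relative to that median, Slc5a2 stood at -2.53 and Slc2a1 at -1.67 between PTS3 and DTL1. Values of 0 in PTS3 were not limited to Slc5a2. The 6 connecting and collecting duct markers summed to 0 TPM in every PTS3 mouse, against 33.2 to 39.8 TPM in PTS2. Endothelial markers summed to 80.9 to 160 TPM in PTS3.

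Slc2a1 stood at 92, 72.3 and 39.9 TPM in DTL1, at 350, 311 and 278 TPM in DTL2, at 269, 139 and 168 TPM in DTL3, and at 57.7, 63.5, 42.3 and 37.3 TPM in ATL. DTL2 lay above the other 3 thin limb groups in every mouse, and DTL3 above ATL. The difference between PTS3 and DTL2 was -5.26 (SE 0.24, adjusted p 1.64e-22), or -4.55 relative to the median of all genes. DTL1 minus DTL2 gave -2.26 (SE 0.24, adjusted p 6.2e-10) and DTL3 minus ATL gave 1.89 (SE 0.23, adjusted p 7.08e-09). Of the odorant and vomeronasal receptor genes, 33 and 20 stood at 1 TPM or more in ATL mice 2 and 3, where Slc2a1 was at 57.7 and 63.5 TPM, against 601 and 703 in ATL mice 4 and 6, where it was at 42.3 and 37.3 TPM. Without mice 4 and 6 the difference was 1.59 and was still called. Endothelial markers were lower in DTL2 (1200 to 2202 TPM) than in DTL1 (3194 to 4285 TPM), where Slc2a1 was lower. In GL, with endothelial markers at 4284 to 4326 TPM and erythroid markers at 193 to 554 TPM, Slc2a1 stood at 34, 39.5 and 37.5 TPM. The part of these cell types in the Slc2a1 values was not tested. Slc2a4 was low in all thin limb groups, with 3.12, 2.58 and 6.7 TPM in DTL2 as the highest values and a call between DTL2 and DTL3 (1.67, SE 0.22, adjusted p 1.05e-07) that was lost with a pseudocount of 5 (0.69).

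Altogether 6 of the 7 genes were called between PTS3 and DTL1 (65.5% of all genes), 7 between PTS3 and DTL2 (40% of all genes) and 7 between DTL1 and DTL2 (28.2% of all genes). These counts are read against high backgrounds, and several rest on low levels. The call of Slc2a2 between DTL1 and DTL2 (1.03) was lost without DTL1 mouse 5 (0.48), DTL2 mouse 1 (0.95) or DTL2 mouse 3 (0.97). It was also lost with quantile normalization (0.08, adjusted p 0.894), median ratio rescaling (0.85), a pseudocount of 0.1 (1.52, adjusted p 0.0812) or 5 (0.47), averaging as TPM (0.97), all pieces as independent (0.78) and the replicate block (0.88). In the same comparison Slc5a1 (0.64, adjusted p 0.118) and Slc5a10 (0.98) lost their calls with quantile normalization, as they did with a pseudocount of 5 (0.84 and 0.97), and Slc2a4 did with the latter (-0.67). Single mice also ended calls against PTS3. Slc2a2 lost its call between PTS3 and DTL1 (1.36) without DTL1 mouse 3 (0.83) and with a pseudocount of 5 (0.79), and Slc5a2 its call between PTS3 and DTL2 (-1.46) without DTL2 mouse 2 (-0.74). The latter was also lost with quantile normalization (-0.87) and a pseudocount of 5 (-0.57), as was the call of Slc2a4 between PTS3 and DTL2 with that pseudocount (-0.82). Only Slc2a4 was called between DTL2 and DTL3 (1 of 7, 9.58% of all genes, median shift -0.20) and only Slc2a1 between DTL3 and ATL (1 of 7, 14.6% of all genes, median shift 0.28). Slc5a1, Slc2a1 and Slc2a4 were called between ATL and MTAL, all higher in MTAL (3 of 7, 28.1% of all genes). There the median of all genes was shifted by 0.48 towards ATL.

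**Figure D3:**
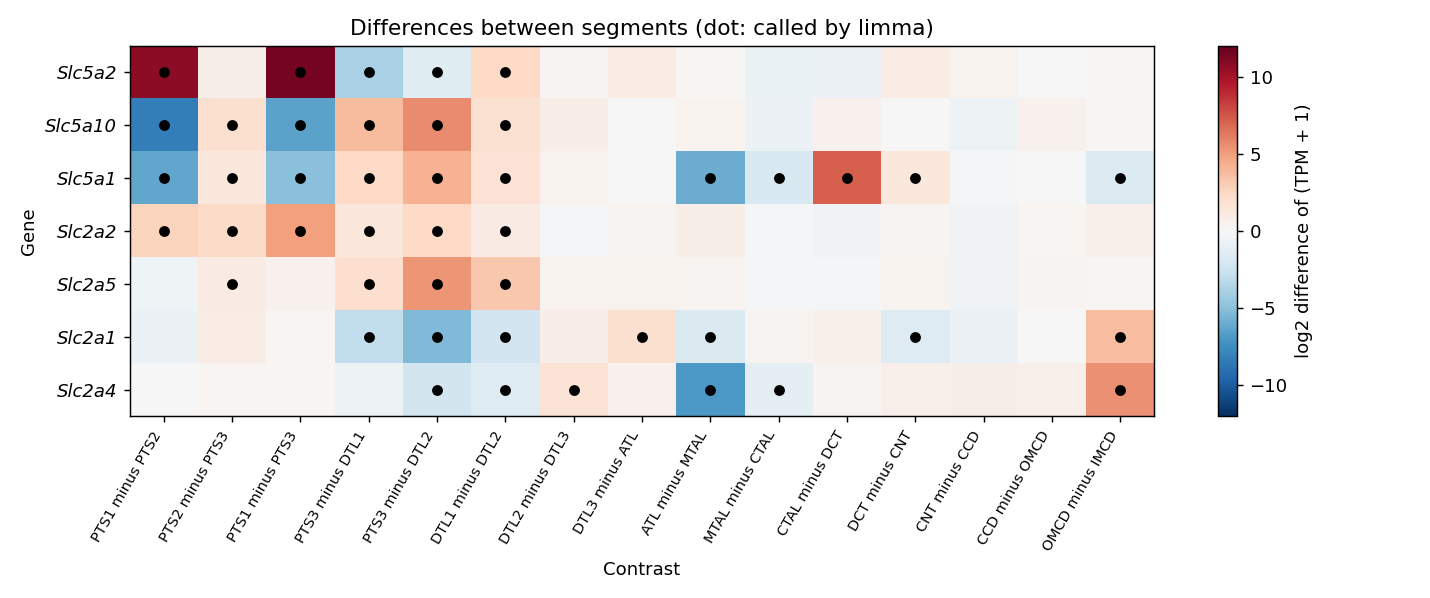
Each cell is the log2 difference of (TPM + 1) of a gene (rows) in a pair of segments (columns, the named one minus the other), red where the named segment was higher; a black dot marks a limma call. In the PTS1 minus PTS2 column Slc5a2 has the deepest red, in the PTS2 minus PTS3 column Slc2a2 does, and Slc5a1 has a deep red for CTAL minus DCT.

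In the thick ascending limb Slc5a1 and Slc2a4 were both high. Slc5a1 stood at 108, 161 and 76.4 TPM in MTAL and at 421, 312, 397, 447 and 356 TPM in CTAL. Every CTAL mouse was above every MTAL mouse, while MTAL overlapped PTS2. MTAL minus CTAL gave -1.80 (SE 0.30, adjusted p 3.02e-05), and the margin of CTAL over every other group was 1.80 (SE 0.30, adjusted p 0.000396), a rule that 0.0651% of all genes met in CTAL. Slc5a1 made up 99.9% ± 0.102 of the summed sodium-coupled carriers in MTAL and 99.5% ± 0.372 in CTAL. The proximal markers summed to 1.09 to 13.5 TPM in MTAL and 88.7 to 464 TPM in CTAL, against 51833 TPM or more in PTS2, and Slc5a10 was at 1.53 TPM or less in every CTAL mouse. Like Slc5a1, the summed thick limb markers given above were higher in every CTAL than in every MTAL mouse. The 5 leukocyte markers summed to 314 to 553 TPM in MTAL, 411 to 891 TPM in CTAL and 210 to 333 TPM in DCT. The part of proximal, thick limb and leukocyte transcripts in the MTAL and CTAL values of Slc5a1 and Slc2a4 was not tested. With a pseudocount of 0.1 the margin, 1.81, was no longer called (adjusted p 1), nor was the difference between MTAL and CTAL (adjusted p 0.0541).

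Slc5a1 was low from the next segment on. It stood at 5.76, 1.98 and 0.18 TPM in DCT, and CTAL minus DCT gave 7.19 (SE 0.30, adjusted p 1.6e-23). The thick limb markers in the DCT pieces summed to 3260 to 4073 TPM per mouse, against 41589 to 47069 TPM in CTAL, and their part in the DCT values of Slc5a1 was not tested. Between DCT and CNT, where Slc5a1 stood at 0.05, 0.365 and 0.005 TPM, the call (1.24, SE 0.34, adjusted p 0.00922) was lost without DCT mouse 1 (0.56, adjusted p 0.391) and with a pseudocount of 5 (0.49). A small rise returned in the last collecting duct segment, with 2.78, 3.46 and 4.58 TPM in IMCD against 1.08, 0.31, 0.16 and 0.22 TPM in OMCD. Those ranges did not overlap, and OMCD minus IMCD gave -1.68 (SE 0.32, adjusted p 3.28e-05), although the median of all genes was shifted by 0.32 the other way. With a pseudocount of 5 this difference was -0.65 and was not called. Slc5a1 overlaps 5033423K11Rik on the opposite strand (7.15 TPM or less in every mouse) and Gm15936 on the same strand (2.88 TPM or less). The part of their reads in such low values was not tested.

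Slc2a4, the GLUT4 gene, was high from MTAL to OMCD and stood under 10 TPM in every mouse elsewhere. It stood at 138, 134 and 104 TPM in MTAL, at 244, 298, 245, 291 and 321 TPM in CTAL, at 210, 230 and 217 TPM in DCT, and at 154, 150 and 138 TPM in CNT. It went on to 91.2, 92.2, 95.8, 79.9 and 103 TPM in CCD and 52.3, 55.4, 66.4 and 76.7 TPM in OMCD, and ended at 0.337, 0.317 and 0.54 TPM in IMCD. From CTAL on, each group lay below the one before in every mouse. Of these steps, MTAL minus CTAL (-1.17, SE 0.20, adjusted p 3.5e-05) and OMCD minus IMCD (5.52, SE 0.21, adjusted p 9.55e-26) were called, and CTAL minus DCT was not (0.35, SE 0.20, adjusted p 0.515). The steps between DCT and OMCD were each 0.57 to 0.67 on the log2 scale and none was called. The MTAL to CTAL call was lost with a pseudocount of 0.1 (adjusted p 0.0756). CTAL did not stand above every other group by the rule used (margin 0.35, adjusted p 1). In GL, Slc2a4 stood at 5.45, 6.4 and 9.6 TPM, with smooth muscle and fat markers at 435 to 577 TPM. In every other group those markers summed to 31.1 TPM or less, and their part in the GL value was not tested.

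The group means of Slc2a1 ran opposite to those of Slc2a4 from DCT to CCD, while over all 15 groups the patterns of the pair had r = 0.65, as a description. It stood at 125, 221 and 149 TPM in MTAL, 139, 118, 153, 116 and 129 TPM in CTAL, and 76.4, 87.6 and 88.7 TPM in DCT, its lowest value in these 3 groups. It then reached 272, 261 and 234 TPM in CNT, 434, 380, 429, 422 and 389 TPM in CCD and 333, 465, 422 and 428 TPM in OMCD. CCD and OMCD overlapped and could not be ordered. Their means of 411 and 412 TPM became 355 and 314 TPM after rescaling by median ratios. In IMCD the level was 17.2, 40.3 and 39.2 TPM. DCT minus CNT gave -1.59 (SE 0.24, adjusted p 2.83e-06) and OMCD minus IMCD gave 3.74 (SE 0.23, adjusted p 4.9e-18). The 4 intercalated cell markers summed to 636 to 694 TPM in DCT, 4307 to 4987 TPM in CNT, 3242 to 4436 TPM in CCD, 2118 to 2866 TPM in OMCD and 0.333 to 4.55 TPM in IMCD. The 6 connecting and collecting duct markers summed to 5985 to 9828 TPM in DCT, 11302 to 14390 TPM in CNT, 19496 to 25030 TPM in CCD, 26294 to 43678 TPM in OMCD and 26759 to 31086 TPM in IMCD. The part of either cell type in the differences of Slc2a1 and Slc2a4 was not tested.

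**Figure D4:**
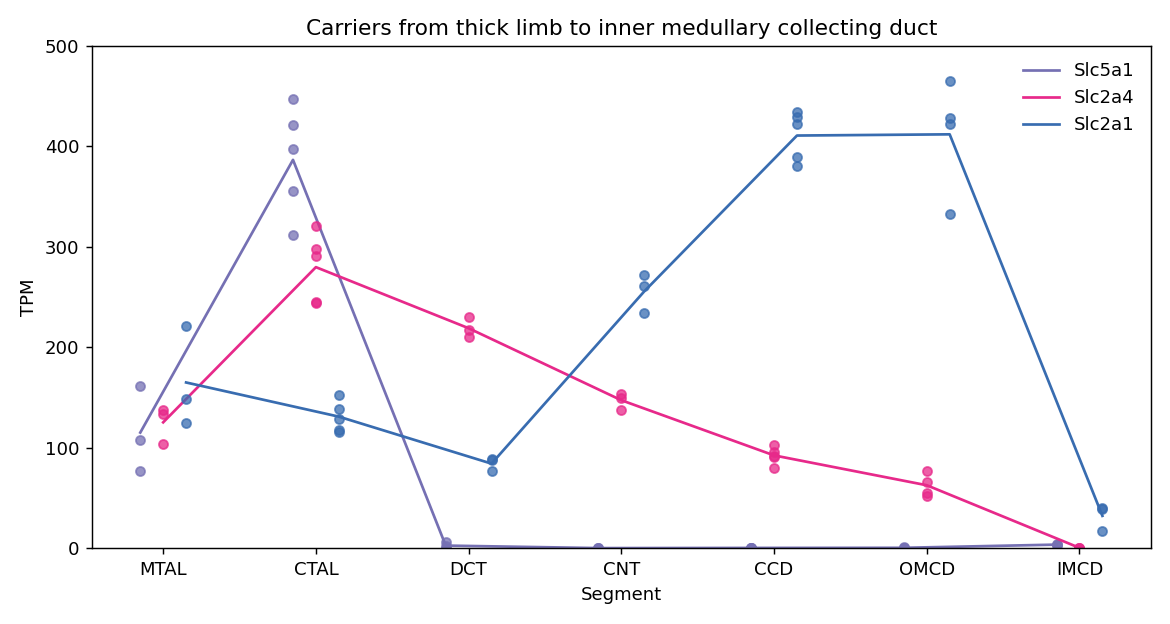
TPM on a linear axis from MTAL to IMCD for Slc5a1, Slc2a4 and Slc2a1; points are mice and lines join the group means. Slc5a1 ends after CTAL, the Slc2a4 means decline from CTAL to OMCD, and the Slc2a1 means climb from 84.2 TPM in DCT to 411 TPM in CCD and are low in IMCD.

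The ratio of Slc2a4 to Slc2a1 averaged 0.803 ± 0.268 in MTAL and 2.17 ± 0.454 in CTAL. It was 2.61 ± 0.151 in DCT and 0.577 ± 0.0124 in CNT, and declined further to 0.226 ± 0.0293 in CCD and 0.153 ± 0.025 in OMCD. It was above 1 in every CTAL and DCT mouse and below 1 in every CNT, CCD and OMCD mouse, so the more abundant of the pair switched between DCT and CNT, and the summed intercalated and collecting duct markers given above were higher in every CNT than in every DCT mouse. The group means of the summed 4 facilitative carriers lay between 306 ± 12.6 TPM (DCT) and 505 ± 22.2 TPM (CCD) from CTAL to OMCD, and at 32.8 ± 13.1 TPM in IMCD. From thick limb to collecting duct, 2 of 7 genes were called between MTAL and CTAL (3.15% of all genes), 1 between CTAL and DCT (4.35% of all genes), 2 between DCT and CNT (5.22% of all genes) and 3 between OMCD and IMCD (18.6% of all genes). Limma called 0 between CNT and CCD (1.12% of all genes) and 0 between CCD and OMCD (12.1% of all genes). At an unadjusted p under 0.05 the counts there were 3 of 7 (6.99% of all genes) and 1 of 7 (39.7% of all genes).

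**Figure D5:**
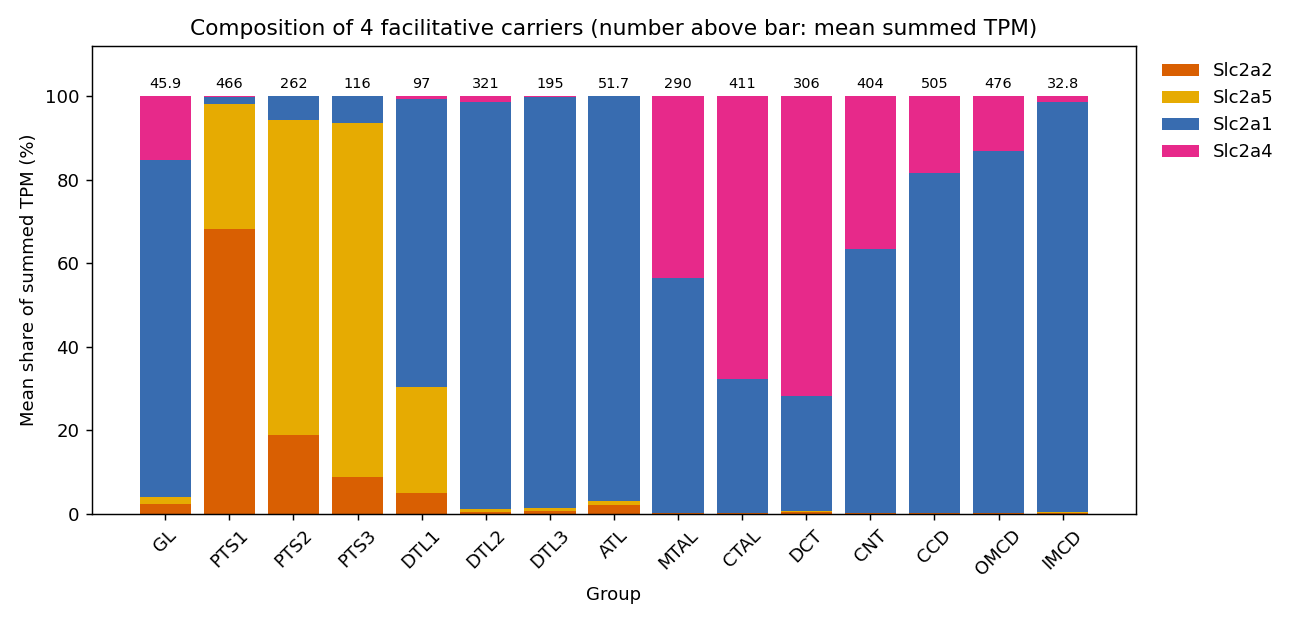
Bars give each gene's mean share (%) of the summed TPM of Slc2a2, Slc2a5, Slc2a1 and Slc2a4 in the 15 groups, and the number above a bar is the mean summed TPM. Slc2a2 leads in PTS1 (68.1%), Slc2a5 in PTS2 (75.4%) and PTS3 (84.9%), Slc2a4 in CTAL (67.8%) and DCT (71.7%), and Slc2a1 in the other groups.

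The group patterns of the 7 genes were compared by Pearson r over the 15 group means of log2(TPM + 1), which share libraries and are given as a description. Slc2a2 and Slc2a5 were the most alike pair (r = 0.90), followed by Slc5a10 with Slc2a5 (0.79) and Slc5a2 with Slc2a2 (0.74). Slc2a1 was the most unlike Slc2a5 (-0.75). Among 11991 genes with a group mean of at least 10 TPM, the closest to Slc5a2 were Prodh2 (0.983), Cyp27b1 (0.975), which encodes the enzyme that activates vitamin D, and Slc5a12 (0.972), a sodium-coupled lactate carrier of the same family. The closest to Slc5a10 were Slc5a8 (0.996), another monocarboxylate carrier of that family, Cyp2a4 (0.992) and Cyp2d9 (0.99). Slc2a5 was closest to Pdzd3 (0.995), Hgd (0.995) and Aldh8a1 (0.993), and Slc2a2 to Xpnpep2 (0.989), Fgg (0.986) and Olfm3 (0.986). Slc2a4 was closest to Slc16a5 (0.968), Kcnj1 (0.963), the ROMK potassium channel, and Defb11 (0.96). Slc2a1 was closest to Cpeb2 (0.952), Slc4a8 (0.937) and Sh2b1 (0.935). Slc5a1 had the loosest matches, P2rx5 (0.882), Etnk2 (0.876) and Flvcr2 (0.803), each highest in CTAL.

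Other carriers of hexoses and related sugars gave 15 tested genes of 16. Between PTS1 and PTS2, 2 were higher in PTS1 and 2 in PTS2 (9.57% of all genes called, 1508 higher in PTS1 and 1725 in PTS2). Between PTS2 and PTS3, 3 were higher in PTS2 (4.7% of all genes called, 1333 higher in PTS2 and 255 in PTS3), and between MTAL and CTAL, 3 were higher in CTAL (3.15% of all genes called, 867 higher in CTAL and 199 in MTAL). The list's median differences in these contrasts were -0.05, 0.35 and -0.12, against 0.15, 0.00 and -0.01 over all genes. Mfsd4b1, a sodium-glucose carrier homologue with close copies in the mouse genome whose reads may be split among them, shared both sites of Slc5a1. It stood at 45.2 ± 1.11 TPM in PTS1, 420 ± 22.4 TPM in PTS2, 190 ± 20.5 TPM in PTS3, 31.3 ± 9.76 TPM in MTAL, 237 ± 52 TPM in CTAL and 11.1 ± 3.91 TPM in DCT. MTAL minus CTAL gave -2.90 (SE 0.30, adjusted p 7.89e-10) and CTAL minus DCT 4.32 (SE 0.30, adjusted p 1.06e-15) for Mfsd4b1. Mfsd4b5, of the same family, reached 522 ± 39.2 TPM in PTS2 but 5.05 ± 0.398 TPM in CTAL. Slc5a9 and Slc5a11, which encode sodium-coupled carriers of mannose and of inositol, were read in all 3 proximal segments. Slc5a9 stood at 38.6 ± 6.4, 44 ± 5.12 and 35.7 ± 10.6 TPM in PTS1, PTS2 and PTS3, with no call between them. Slc5a11 stood at 65.5 ± 8.32, 78.4 ± 7.82 and 18.2 ± 8.74 TPM, with a call between PTS2 and PTS3 (2.19, SE 0.32, adjusted p 1.46e-06).

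The enzymes that meet the imported sugars were read beside the carriers. Khk, which starts fructose breakdown, was at 534 ± 21.4 TPM in PTS1, 1268 ± 61.1 TPM in PTS2 and 1335 ± 62.3 TPM in PTS3, and PTS1 minus PTS2 gave -1.25 (SE 0.27, adjusted p 0.000328). Of the 5 genes of fructose breakdown and the polyol pathway, 2 were higher in PTS2 than in PTS1 and 0 lower (9.57% of all genes called). G6pc, whose product frees glucose from glucose 6-phosphate, declined as Slc2a2 did, with 730 ± 121 TPM in PTS1, then 221 ± 75.6 TPM in PTS2 and 16.7 ± 4.14 TPM in PTS3. Its differences were 1.79 (SE 0.43, adjusted p 0.0013) and 3.61 (SE 0.43, adjusted p 1.47e-08). Hk1, a hexokinase that traps glucose in the cell, was at 1.04 ± 0.571, 2.29 ± 0.606 and 4.49 ± 0.84 TPM in PTS1, PTS2 and PTS3, and at 391 ± 25 TPM in DTL2, 391 ± 83 TPM in MTAL, 402 ± 43.2 TPM in CTAL and 363 ± 17 TPM in CCD. Like Slc2a1 it was higher in DTL2 than in PTS3 (PTS3 minus DTL2 -6.21, SE 0.25, adjusted p 1.6e-24) and fell from OMCD to IMCD (2.33, SE 0.24, adjusted p 3.99e-11). Of the 13 genes of glucose phosphorylation and release, 2 were higher in PTS1 than in PTS2 and 0 lower (9.57% of all genes called), and 3 were higher in PTS2 than in PTS3 and 0 lower. The latter direction was also the usual one over all genes, with 1333 higher in PTS2 and 255 in PTS3 (4.7% called).

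Of the 12 partners and regulators, 3 were higher in PTS1 than in PTS2 and 5 lower (9.57% of all genes called, 1508 higher and 1725 lower). Pdzk1ip1, whose product MAP17 is the partner that SGLT2 needs for its activity, was at 3487 ± 131 TPM in PTS1, 705 ± 60.3 TPM in PTS2 and 1539 ± 308 TPM in PTS3, but higher still in CCD (4742 ± 440 TPM) and OMCD (4668 ± 389 TPM), where Slc5a2 did not reach 1 TPM in any mouse. Hnf4a, which encodes a transcription factor of liver and proximal tubule, stood at 78 ± 14.3, 142 ± 15 and 113 ± 14.4 TPM in PTS1, PTS2 and PTS3 and at 0.309 ± 0.103 TPM in CTAL. Of the regulators of GLUT4 traffic, Tbc1d4 was highest in the thin limbs, at 88.4 ± 10.3 TPM in DTL2 and 128 ± 39.6 TPM in DTL3, and stood at 13.7 ± 0.86 TPM in CTAL. For Tbc1d4, DTL1 minus DTL2 gave 0.32 (SE 0.27, adjusted p 0.327), which was not called. The Tbc1d1 means were 159 ± 25.2 TPM (CCD), 136 ± 5.76 TPM (CNT), 69.4 ± 6.8 TPM (DCT) and 22 ± 3.16 TPM (CTAL).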

How the data were processed

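The 93 samples are microdissected glomeruli and tubule segments. The authors deposited TPM per gene, a unit scaled to the same total in each sample, and STAR 2.5.4a and RSEM 1.3.0 are named in the submitters' processing notes, without their role. The genome build used for the counting is not given in the sources used here. Column sums ran from 999998.6 to 1000190.3 TPM, and 0 pairs of columns were identical. Depth is unknown, so no counting interval is given. All 93 sample columns were used. A PTS2 column named for piece b of mouse 2 matched no sample title, and the sample titled as piece a of that mouse matched no column, so the column was used as a PTS2 mouse with no number. A further 3 single-cell samples were not analysed here.

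Pieces of 1 mouse number and segment were averaged as log2(TPM + 1) for tests and as TPM for levels, giving 53 combinations of number and segment. These are the replicates and are called mice, since the series' design text also gives 53 mice. A linear model on log2(TPM + 1) was fitted by limma 3.58.1 (R 4.3.3) with all 15 groups in 1 fit and a variance trend, on the 33793 genes with at least 1 TPM in at least 3 mice, which all 7 genes passed. Differences are on that scale and understate changes of low genes. Tests were a moderated F-test, two-sided contrasts, and an intersection-union test (largest one-sided p of 14 contrasts), each Benjamini-Hochberg adjusted over genes at 0.05, the last 2 kinds with a log2 difference of at least 1. The code was tested on simulated data.

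The genes and the lists read beside them were chosen with earlier results of these data known. Named genes are the 7 transporters, members of the lists that a result turns on or that differ most, and the 3 genes most like each transporter. Alternatives were other pseudocounts (0.1 and 5), filters, rescaling by median ratios, quantile normalization, other averaging of pieces, a fit without a variance trend, a replicate block, and leaving out mice or groups. The alternatives without 1 DCT piece and without ATL mice 4 and 6 were chosen after seeing the data.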

Additional observations from a re-analysis of the deposited data

Results flagged for a closer look

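Among 35 combinations of a gene and a group of 4 or 5 mice, 5 held a mouse set apart from the rest of its group by Dixon's criterion, which flags about 1 in 20 groups of normally distributed values by chance. They were Slc5a1 in OMCD mouse 1 (1.08 TPM, the other mice 0.16 to 0.31 TPM), Slc5a2 in ATL mouse 6 (0.97 TPM, the others 0), Slc5a10 in CTAL mouse 2 (1.53 TPM, the others 0.435 to 0.63 TPM), Slc2a2 in OMCD mouse 2 (0.19 TPM, the others 0.675 to 0.77 TPM) and Slc2a4 in ATL mouse 2 (0.12 TPM, the others 0). None was in a group where the gene was high. In the ATL cases the other mice were all at 0, so any value above 0 would have been flagged. The rate of 1 in 20 does not hold for values so near 0, and the 5 of 35 cannot be set against it. Groups of 3 mice were not examined in this way.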

How the results depend on the processing

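Of 49 called results, the alternatives kept the call 3175 times, lost it 41 times and reversed it 0 times. Each result met 65 or 66 alternatives, and up to 53 of these left out 1 mouse. Where that mouse was in neither group of a contrast, the call could hardly change, so the kept total overstates how firm the calls are. The calls of Slc2a5 between PTS2 and PTS3 and of Slc2a2 between DTL1 and DTL2 were each lost 10 times. The number of genes called among the groups stayed at 7. The calls along the proximal tubule (12 in the main setting) ranged from 11 to 13 over the alternatives and from 11 to 12 leaving out a mouse, those along the thin limbs (25) from 17 to 27 and from 24 to 26, and those from thick limb to collecting duct (8) from 6 to 8 and from 7 to 8. The number of genes standing above all groups but their own was 4, 4 throughout leaving out a mouse, and 2 with a pseudocount of 0.1, where Slc5a10 in PTS2 (margin 1.91, adjusted p 0.328) and Slc5a1 in CTAL were lost. With a pseudocount of 5 the thin limb count was 17 and with quantile normalization 21. The highest group stayed the same for 6 of 7 genes after rescaling by median ratios, which divides PTS1 values by 0.57 to 0.632 and DTL1 values by 1.39 to 1.52. Slc2a1 then ranked CCD above OMCD. Mouse numbers were not used for pairing in the main fit, and 0 of 15 contrasts had all same-number pairs correlated above 0.1. That rule is strict and does not show that pairing is absent. For DCT minus CNT, same-number r ran from 0.08 to 0.19, against a median of -0.09 for other pairs. For MTAL minus CTAL it ran from -0.16 to 0.05, against a median of 0.02. With a replicate block, which leaves out the PTS2 mouse with no number, 11 proximal, 24 thin limb and 8 later calls were made, and Slc2a5 between PTS2 and PTS3 gave 0.83 (adjusted p 0.0725). The thin limb count has no value without GL, DTL1, DTL3 and ATL. Depth is unknown, so values near 1 TPM cannot be given a counting limit.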

Other observations

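G6pc, described above in the proximal tubule, was also read in MTAL, at 53 ± 24.5 TPM (26.2, 58.7 and 74.1 TPM), against 3.04 ± 0.266 TPM in CTAL. MTAL minus CTAL gave 3.62 on the log2 scale (SE 0.43, adjusted p 2.37e-08, limma). The 7 proximal markers summed to 1.09 to 13.5 TPM in MTAL, and to 88.7 to 464 TPM in CTAL. Fbp1, also a gene of glucose synthesis, was at 0.86 ± 0.696 TPM in MTAL and 32.3 ± 8.22 TPM in CTAL, and Pck1 at 0.372 ± 0.34 TPM and 4.3 ± 1.45 TPM, the direction in which the proximal markers differed. The part of proximal transcripts in the values of these 3 genes was not tested.

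Slc5a3, which encodes a sodium-coupled inositol carrier, was at 148 ± 38.9 TPM in MTAL, 123 ± 30.3 TPM in CTAL and 120 ± 42.4 TPM in IMCD, and below 2 TPM on average in each proximal segment (0.675 ± 0.0328, 1.71 ± 0.286 and 0.888 ± 0.378 TPM). Slc2a9, a urate carrier of the facilitative family, stood at 25.3 ± 3.43 TPM in DCT and 26.7 ± 7.27 TPM in CNT, against 0.192 ± 0.139 TPM in CTAL and 3.6 ± 1.26 TPM in CCD. Slc2a12 was highest in DCT at 20.9 ± 1.12 TPM.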
